A study of Mus musculus with 6 samples.

Results

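The 10 genes described here encode the kinases, adaptors and first effectors that carry the signal of the B-cell receptor just below the membrane. They are the kinases *Lyn*, *Fyn*, *Blk*, *Syk* and *Btk*, the adaptors *Blnk* and *Pik3ap1*, and the effectors *Plcg2*, *Vav1* and *Pik3cd*. Each was found by its gene symbol in an RNA-seq table of 55421 mouse genes, and each symbol matched 1 row. RNA was sequenced from splenic B cells that had been activated ex vivo for 24 h with LPS (5 μg/ml), a bacterial ligand of Toll-like receptor 4, and IL-4 (5 ng/ml). The comparison was between 3 libraries of hnRNPL-deficient cells and 3 WT libraries. It asked which genes change in level when the RNA-binding protein hnRNPL, a splicing regulator that prefers CA repeats, is lost. The values are totals per gene, so splicing of the 10 genes was not examined.

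All mice carried the *CD21-cre* transgene together with the reporter allele *Rosa* mT/mG, in which Cre switches the cell from tdTomato to GFP. WT mice had intact *Hnrnpl*, while hnRNPL-deficient mice were *Hnrnpl* F/F, with floxed alleles, and GFP+ cells were sorted from both groups. They were on the C57BL6/J background and older than 6 weeks, and both sexes were used. The promoter of *CD21* drives Cre mainly in mature B cells, so *Hnrnpl* is deleted mainly after early B-cell development. The stated culture agents include no ligand of the B-cell receptor. Per the study, each library came from a different mouse, and the p-values measure the spread between these mice.

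When the B-cell receptor is engaged, the Src-family kinases LYN, FYN and BLK phosphorylate the tyrosine motifs of its signaling chains, to which SYK then binds. SYK phosphorylates the adaptor BLNK, which brings BTK and phospholipase C-gamma 2 (*Plcg2*) together, and BTK activates the phospholipase. The adaptor BCAP (*Pik3ap1*) recruits the PI3K catalytic subunit p110 delta (*Pik3cd*), while VAV1 activates Rac GTPases and the cytoskeleton. LPS and IL-4 act through receptors of their own, while mature B cells rely on the B-cell receptor for survival and for the response to antigen.

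Values are normalized counts, that is, reads per gene after the authors had scaled every library with DESeq2 size factors. Libraries held between 40395186 and 75180749 reads on genes, and hnRNPL-deficient library 3 and WT library 1 were the shallowest of their groups. The targeted gene *Hnrnpl*, counted over the whole gene, was at 24174 to 25580 normalized counts in WT libraries and at 1297 to 2178 in hnRNPL-deficient libraries, or 6.74% of the WT mean (log2 fold change -3.93, standard error 0.173, adjusted p = 2.23e-05 from limma). *Xist*, the X-inactivation transcript of female cells, stood at 98507 in WT library 3 and 98219 in hnRNPL-deficient library 2 and at 7.21 or less in the other 4, so each group held 1 *Xist*-expressing library. The 8 B-cell markers, among them *Cd79a*, *Cd79b*, *Ms4a1* and *Pax5*, summed to 304770 to 381370 normalized counts in WT and 301350 to 350150 in hnRNPL-deficient libraries. Of the 10 T-cell markers 2 reached the level needed for testing, with sums of 169 to 223 and 169 to 413.

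None of the 10 genes was called differentially expressed by limma, nor by edgeR or DESeq2 on the underlying reads. A call required a 1.5-fold change or more and a p, adjusted by Benjamini-Hochberg, below 0.1. The test was limma on log2(normalized count + 1), over the 17640 genes that averaged 10 or more normalized counts, and 11.4% of those genes were called. Of the 10 genes, 1 (*Blk*) had an adjusted p under 0.1 whatever its fold change, against 18.0% of all tested genes, and 1 had an unadjusted p under 0.05. The WT and hnRNPL-deficient values did not overlap for 2 genes, *Blk* and *Btk*, against 34.0% of all tested genes. Mean log2 values were higher in hnRNPL-deficient cells for 4 genes and lower for 6. The median log2 fold change of the 10 was -0.03, as it was over all tested genes. The median size of the change, whatever its direction, was 0.08 for the 10 genes and 0.28 for all tested genes, which reach down to an average of 10 normalized counts. It was 0.22 over the 101 tested genes of the 6 pathway lists described below, and lowest among these lists in 25 downstream genes (0.11). Standard errors of the 10 genes were also smaller than those of all tested genes, with a median of 0.102 on the log2 scale against 0.189.

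For 8 of the 10 genes, the 95% confidence interval of the fold change lay within 1.5-fold in either direction, which was so for 34.4% of all tested genes. The other 2 were *Blk*, whose interval reached above it, and *Pik3cd*, whose interval reached below it. These intervals come from 3 libraries per group. In simulated data of the same size, the spread between libraries was set alike for all genes and not taken from these libraries. There, limma called 22 of 50 genes with a true 1.5-fold change and 48 of 50 with a 2-fold change. A true change of 1.5-fold lies at the fold minimum of a call, so such changes often go uncalled whatever the spread. The power in these libraries was not measured. Of the 50 with a 1.5-fold change, 41 had an adjusted p under 0.1.

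**Figure D1:**
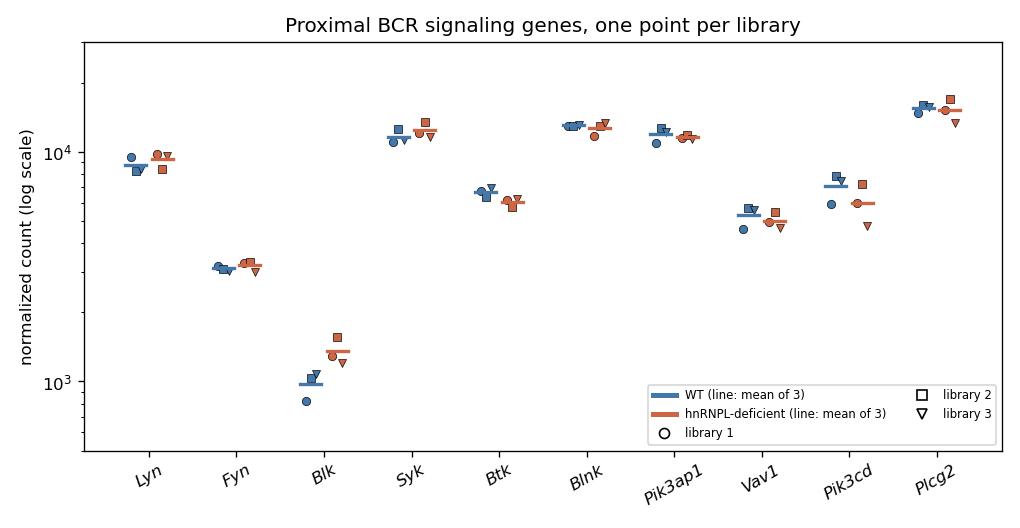
Normalized counts (log axis) of the 10 genes, with 1 point for each of the 3 WT and 3 hnRNPL-deficient libraries, marker shapes for library numbers and lines for group means. The groups overlap for 8 genes and are apart for *Blk*, at 822 to 1077 in WT against 1207 to 1559, and for *Btk*, at 6380 to 6952 in WT against 5756 to 6249.

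**Figure D2:**
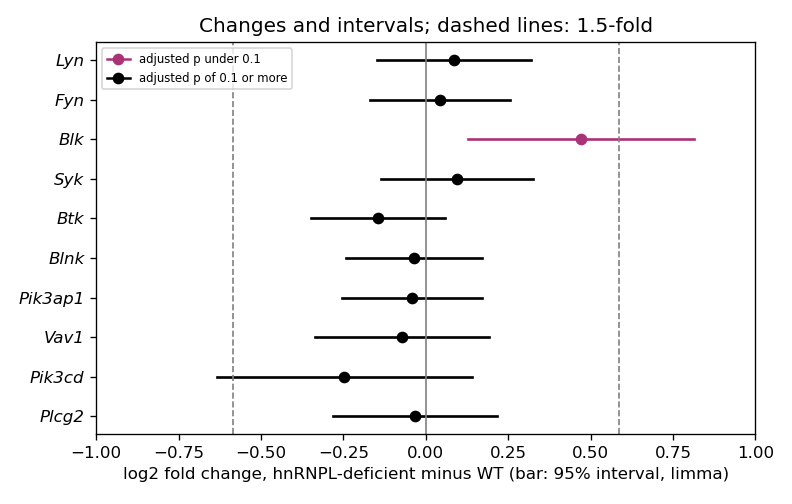
Log2 fold change of hnRNPL-deficient against WT for each of the 10 genes, with its 95% confidence interval from limma. The grey line marks no change, dashed lines mark 1.5-fold in either direction, and color marks an adjusted p under 0.1. The interval of *Blk*, the only colored one, lies wholly above 0, those of the other 9 genes include 0, and those of *Blk* and *Pik3cd* cross the 1.5-fold lines.

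The Src-family kinases act first. *Lyn* (chromosome 4, 3678115 to 3813122 in the mm10 genome), which both starts the signal and, through inhibitory receptors, damps it, had 9530, 8242 and 8438 normalized counts in WT libraries 1, 2 and 3. In hnRNPL-deficient libraries 1, 2 and 3 it had 9795, 8462 and 9558. The groups overlapped, with WT library 1 above hnRNPL-deficient library 2 and close to the other hnRNPL-deficient libraries. The log2 difference for *Lyn* was 0.09 (standard error 0.103, 95% interval -0.15 to 0.32, adjusted p = 0.628 from limma).

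*Fyn* (chromosome 10, 39368855 to 39565381), a kinase that B cells share with T cells, had 3191, 3100 and 3026 normalized counts in WT and 3296, 3324 and 2991 in hnRNPL-deficient libraries. The lowest and the highest of the 6 values both came from hnRNPL-deficient cells. For *Fyn*, the log2 fold change was 0.04 (standard error 0.0934, 95% interval -0.17 to 0.26, adjusted p = 0.798 from limma).

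*Blk* (chromosome 14, 63372836 to 63417037), the Src-family kinase most restricted to B cells, was the exception among the 10. It had 822, 1037 and 1077 normalized counts in WT libraries and 1297, 1559 and 1207 in hnRNPL-deficient libraries. Every hnRNPL-deficient value was above every WT value, and the lowest WT value came from the shallowest WT library. WT cells averaged 978 ± 137 and hnRNPL-deficient cells 1355 ± 183 (SD, n = 3 libraries each), or 138% of the WT level. On the log2 scale, *Blk* was higher by 0.47 (standard error 0.151, 95% interval 0.13 to 0.81, adjusted p = 0.0822 from limma), a 1.39-fold difference with an interval from 1.09 to 1.76-fold. *Blk* was thus under the 1.5-fold minimum. Its adjusted p from limma was between 0.128 and 0.224 on leaving out WT library 1, 2 or 3 or hnRNPL-deficient library 1 or 2, and 0.0866 without hnRNPL-deficient library 3, while its log2 fold change was between 0.35 and 0.55. Over all alternatives the adjusted p of *Blk* ranged from 0.0281 to 0.224.

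*Syk* (chromosome 13, 52583173 to 52648792), the tandem SH2-domain kinase that docks on the phosphorylated receptor chains, had 11038, 12550 and 11270 normalized counts in WT and 12139, 13505 and 11597 in hnRNPL-deficient libraries. The highest WT value lay above the values of hnRNPL-deficient libraries 1 and 3. This gave *Syk* a log2 fold change of 0.09 (standard error 0.101, 95% interval -0.14 to 0.32, adjusted p = 0.581 from limma).

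*Btk* (chromosome X, 134542336 to 134583570), the Tec-family kinase whose loss causes X-linked immunodeficiency in mice, had 6724, 6380 and 6952 normalized counts in WT and 6149, 5756 and 6249 in hnRNPL-deficient libraries. All WT values were above all hnRNPL-deficient values. The difference was small, with means of 6685 ± 288 and 6051 ± 261 (SD, n = 3 libraries each) and a log2 fold change of -0.14 (standard error 0.0891, 95% interval -0.35 to 0.06, adjusted p = 0.338 from limma). *Btk* is X-linked, and its highest WT value and lowest hnRNPL-deficient value were those of the *Xist*-expressing libraries. Without WT library 3 the log2 fold change of *Btk* was -0.12, and without hnRNPL-deficient library 2 it was -0.11.

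Both adaptors overlapped between the groups. *Blnk* (chromosome 19, 40928927 to 40994535), the scaffold on which BTK and phospholipase C-gamma 2 meet, had 13023, 12981 and 13134 normalized counts in WT and 11789, 13019 and 13401 in hnRNPL-deficient libraries. The WT values had a coefficient of variation of 0.606%, the narrowest spread among the 10 genes, and lay inside the hnRNPL-deficient range. For *Blnk*, the log2 fold change was -0.04 (standard error 0.0903, 95% interval -0.24 to 0.17, adjusted p = 0.824 from limma). *Pik3ap1* (chromosome 19, 41272377 to 41385102), which lies 278 kb from *Blnk* and encodes BCAP, had 10949, 12678 and 12182 normalized counts in WT and 11478, 11899 and 11372 in hnRNPL-deficient libraries. All 3 hnRNPL-deficient values lay inside the WT range. This gave *Pik3ap1* a log2 fold change of -0.04 (standard error 0.0933, 95% interval -0.25 to 0.17, adjusted p = 0.810 from limma).

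Of the effectors, *Plcg2* (chromosome 8, 117498291 to 117635142), which makes the second messengers that release calcium and activate protein kinase C, had 14844, 16084 and 15656 normalized counts in WT and 15249, 17043 and 13426 in hnRNPL-deficient libraries. The lowest and the highest of the 6 values were both from hnRNPL-deficient cells. For *Plcg2*, the log2 fold change was -0.03 (standard error 0.109, 95% interval -0.28 to 0.22, adjusted p = 0.870 from limma). *Vav1* (chromosome 17, 57279100 to 57328031), a guanine nucleotide exchange factor for Rac, had 4606, 5713 and 5563 normalized counts in WT and 4940, 5461 and 4673 in hnRNPL-deficient libraries. All 3 hnRNPL-deficient values again lay inside the WT range. On the log2 scale, *Vav1* differed by -0.07 (standard error 0.116, 95% interval -0.34 to 0.19, adjusted p = 0.725 from limma).

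*Pik3cd* (chromosome 4, 149649168 to 149702571), the leukocyte PI3K subunit, had the widest spread of the 10. It had 5907, 7847 and 7486 normalized counts in WT and 5997, 7258 and 4762 in hnRNPL-deficient libraries. The groups overlapped, and in each the shallowest library was the lowest. The hnRNPL-deficient mean was 84.8% of the WT mean, and the log2 fold change -0.25 (standard error 0.169, 95% interval -0.63 to 0.14, adjusted p = 0.386 from limma). With 1 library left out, the log2 fold change of *Pik3cd* was -0.09 without hnRNPL-deficient library 3, -0.40 without hnRNPL-deficient library 2 and -0.37 without WT library 1, and it was not called in any of these fits. In all, 6 of the 10 genes (*Syk*, *Blk*, *Plcg2*, *Vav1*, *Pik3cd* and *Pik3ap1*) had their lowest value of each group in its shallowest library, and the part of depth in these values was not tested. In bulk RNA, fewer cells of a type and less RNA per cell cannot be told apart.

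To compare levels between genes, normalized counts were divided by the length of the exons of each gene, joined over all its annotated transcripts. For *Blnk* this length was 5991 bases, against 2097 in its longest protein-coding reference transcript, while for *Plcg2* both were 4298. The order of genes below thus depends on this choice of length, and the order by transcript length was not examined. By joined exon length, *Plcg2* was the highest in WT cells at 3613 ± 146 normalized counts per kb (SD, n = 3 libraries). *Blnk* (2178 ± 13.2), *Lyn* (2145 ± 170), *Pik3ap1* (2142 ± 160) and *Btk* (2123 ± 91.5) followed with overlapping values per kb. *Vav1* (1436 ± 163), *Syk* (1241 ± 87.0) and *Pik3cd* (1131 ± 165) formed the next step, again with overlap between neighbours. *Fyn* at 712 ± 19.0 and *Blk* at 363 ± 50.8 per kb were the lowest. The steps without overlap between WT libraries were those from *Plcg2* to *Blnk* (1.66 times), *Btk* to *Vav1* (1.48 times), *Pik3cd* to *Fyn* (1.59 times) and *Fyn* to *Blk* (1.96 times). The level per kb of *Blk* was at percentile 62.7 of the 17615 tested genes with a known exon length, and that of *Plcg2* at percentile 94.3. In hnRNPL-deficient cells, the order per kb was the same except that *Lyn* (2276 ± 175) and *Blnk* (2126 ± 141), which overlapped, changed places.

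Several of these kinases have close relatives in the same cell, so each gene was also expressed as a share of its family's level per kb within a library, a quantity that does not depend on the scaling between libraries. With 3 libraries against 3, a two-sided exact permutation test has 20 splits and cannot give a p under 0.1. Shares were tested for 9 of the 10 genes, all but *Pik3ap1*. Among the 8 Src-family kinases, *Lyn* made up 54.6 ± 2.77% in WT and 55.7 ± 3.94% in hnRNPL-deficient libraries (SD, n = 3, p = 0.9, exact permutation test). *Fyn* made up 18.1 ± 0.428% and 18.0 ± 0.814% (n = 3, p = 0.9, exact permutation test), so the level of both relative to their family differed by less than the spread between libraries.

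The share of *Blk* was 7.52, 10.1 and 10.2% in WT libraries and 11.4, 14.3 and 11.2% in hnRNPL-deficient libraries. The groups did not overlap, and the mean share was 3.03 percentage points higher in hnRNPL-deficient cells (9.27 ± 1.51% against 12.3 ± 1.70%, n = 3, p = 0.1, exact permutation test, the smallest it can give). The shares of *Fgr* (3.86% in WT and 1.48% in hnRNPL-deficient cells), *Lck* (8.17% and 6.23%) and *Src* (1.27% and 0.574%) were lower in all hnRNPL-deficient libraries than in all WT libraries.

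**Figure D3:**
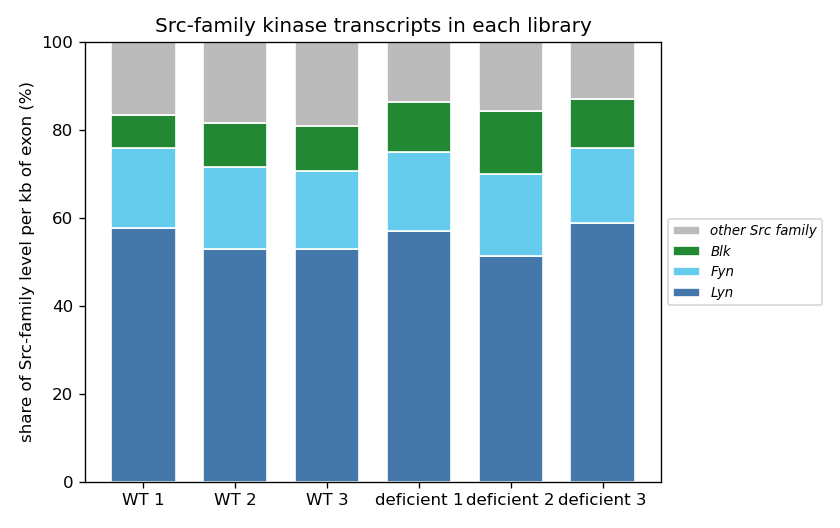
Shares of *Lyn*, *Fyn* and *Blk*, and of the other Src-family kinases together, in the family's summed level per kb of exon, in percent, as 1 stacked bar for each of the 3 WT and 3 hnRNPL-deficient libraries. *Lyn* fills over 50% of every bar, and *Blk* has a mean share of 9.27% in WT and 12.3% in hnRNPL-deficient libraries.

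Outside the Src family, 5 of the genes (*Syk*, *Plcg2*, *Btk*, *Vav1* and *Blnk*) made up over 50% of their families in both groups. *Syk* made up 99.4% of the *Syk* and *Zap70* level per kb in WT and 99.5% in hnRNPL-deficient cells (n = 3, p = 0.3, exact permutation test). *Plcg2* made up 96.9% and 97.1% of both PLC-gamma genes (n = 3, p = 0.4, exact permutation test). *Btk* made up 81.5% and 83.4% of the 5 Tec-family kinases (n = 3, p = 0.3, exact permutation test). *Vav1* made up 65.9% and 64.1% of the 3 VAV genes (n = 3, p = 0.2, exact permutation test).

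*Blnk* made up 98.4, 97.8 and 97.9% of its family with *Lcp2* and *Clnk* in WT libraries, and 95.002, 96.1 and 97.6% in hnRNPL-deficient libraries. The groups did not overlap, with a mean share lower by 1.82 percentage points in hnRNPL-deficient cells (p = 0.1, exact permutation test). *Clnk* was at 0 in all 6 libraries, so this share mirrors that of *Lcp2*, which encodes the T-cell and myeloid adaptor SLP-76 and had mean shares of 1.95% (WT) and 3.77% (hnRNPL-deficient). *Pik3cd* made up 49.6 ± 4.16% of the 4 PI3K catalytic subunits in WT and 45.7 ± 5.74% in hnRNPL-deficient cells, with overlapping groups (n = 3, p = 0.5, exact permutation test). The share of *Pik3cg*, the subunit that answers to G-protein-coupled receptors, was 21.4% in WT and 28.6% in hnRNPL-deficient cells, without overlap.

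Around the 10 genes, 6 lists of the same pathway held 104 other genes, of which 101 were tested (*Bmx*, *Gab1* and *Clnk* were too low). Of these, 7 were called higher (7.28% of all tested genes were) and 6 lower (4.08% of all tested genes were). The 13 calls in all are 12.9% of the 101. They were spread unevenly over the lists, though the lists are small and were not tested against each other.

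Upstream of the kinases, 2 of 8 receptor and coreceptor genes were called higher, and the median log2 fold change of the 8 was 0.29. Of the 8, 5 had an adjusted p under 0.1 from limma, against 18.0% of all tested genes. Mean log2 values were higher in hnRNPL-deficient cells for 6 of the 8 and lower for 2. *Cd81*, a tetraspanin of the B-cell surface, had 9418, 6462 and 6834 normalized counts in WT and 17023, 12975 and 15693 in hnRNPL-deficient libraries, without overlap. The log2 fold change of *Cd81* was 1.02 (standard error 0.162, adjusted p = 0.00684 from limma). *Cr2*, which encodes CD21, rose from 4015 ± 1017 to 7299 ± 2022 normalized counts (log2 fold change 0.85, standard error 0.225, adjusted p = 0.0444 from limma), but lost its call when WT library 2 or 3, or hnRNPL-deficient library 3, was left out (adjusted p up to 0.143 from limma). *Cr2* is 1 of 9 listed marginal zone B-cell markers, which went in both directions (given below), and its promoter drives the Cre of both groups. The signaling chains themselves, *Cd79a* (log2 fold change 0.27, adjusted p = 0.192 from limma) and *Cd79b* (0.31, adjusted p = 0.235), overlapped between the groups.

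Of 10 tested kinases related to the 10 genes, 2 were called lower, both Src-family members at low levels. *Fgr* fell from 586 ± 49.7 to 234 ± 37.8 normalized counts (log2 fold change -1.33, standard error 0.173, adjusted p = 0.00298 from limma). *Src* fell from 216 ± 53.1 to 102 ± 13.9 (log2 fold change -1.05, standard error 0.245, adjusted p = 0.0301 from limma), a call lost on leaving out WT library 2 or 3 (adjusted p up to 0.121 from limma).

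Among 18 tested adaptors beside BLNK and BCAP, 4 were called higher and 2 lower. *Stap1*, which encodes a docking protein, rose from 4590 ± 416 to 7784 ± 1093 normalized counts (log2 fold change 0.76, standard error 0.127, adjusted p = 0.00828 from limma). *Cd2ap*, an actin-linked scaffold, fell from 15075 ± 2782 to 7537 ± 999.9 (log2 fold change -0.99, standard error 0.1504, adjusted p = 0.00543). *Lcp2*, *Gab2* and *Gab3* were called higher from WT means of 193, 28.4 and 81.6 normalized counts, with adjusted p of 0.0614, 0.0769 and 0.0588 from limma. With 1 library left out, *Lcp2* was called only without hnRNPL-deficient library 3, *Gab2* only without WT library 3 and *Gab3* only without WT library 1, with adjusted p of up to 0.157, 0.196 and 0.184 from limma. *Sh2b2* fell from 714 ± 27.4 to 439 ± 101 (log2 fold change -0.72, adjusted p = 0.0335 from limma; 0.1197 without WT library 3).

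Of 16 relatives of the PI3K, PLC and VAV genes, 1 had an adjusted p under 0.1, *Pik3ca* (log2 fold change -0.30, adjusted p = 0.0882 from limma), and it was under the 1.5-fold minimum. Of 25 downstream genes, 2 were called lower. Of these, *Itpr3*, an inositol trisphosphate receptor that releases calcium when *Plcg2* is active, fell from 4341 ± 582 to 2062 ± 383 normalized counts (log2 fold change -1.08, standard error 0.157, adjusted p = 0.00464 from limma). Of 24 negative regulators, 5 had an adjusted p under 0.1 from limma, against 18.0% of all tested genes, and 1 was called. *Cd72*, an inhibitory receptor, rose from 1249 ± 226 to 2110 ± 101 normalized counts (log2 fold change 0.77, standard error 0.145, adjusted p = 0.0133 from limma). The calls of *Cd81*, *Fgr*, *Stap1*, *Cd2ap*, *Itpr3* and *Cd72* were made in each of the 21 fits tried at these thresholds.

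**Figure D4:**
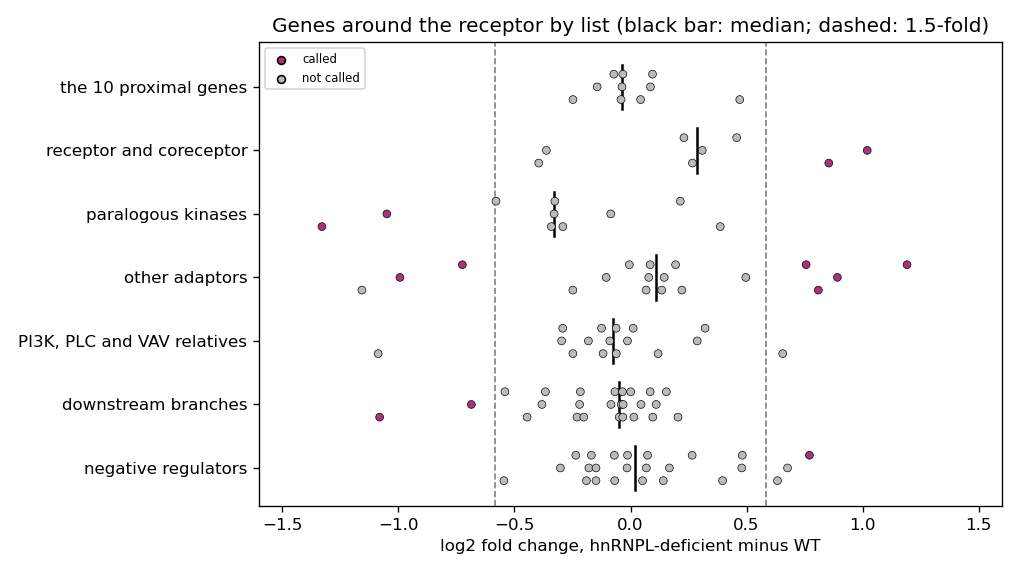
Log2 fold change of hnRNPL-deficient against WT for each tested gene, by list, with the 10 genes described here in the first row. Points are genes, colored where called by limma, black bars are list medians and dashed lines mark 1.5-fold. The 10 genes lie between -0.25 and 0.47, within the range of the 101 other tested genes, which runs from -1.33 to 1.19.

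Markers of other cell types are given beside these values, and their part in them was not tested. Of the 10 myeloid markers 2 were tested and 1, *Adgre1*, was called higher, from 278 ± 39.9 to 1308 ± 80.2 normalized counts (adjusted p = 1.39e-04 from limma). It made up nearly all of a summed level of 261 to 337 in WT and 1241 to 1384 in hnRNPL-deficient libraries, while *S100a8* and *S100a9* were at 0 in all 6. The 6 NK-cell markers summed to 2.29 or less in WT and to 3.03 to 10.8 in hnRNPL-deficient libraries, with *Ncr1* at 0. Erythroid and platelet markers summed to 51.1 to 57.9 and 71.2 to 112, with *Pf4* and *Ppbp* at 0, and 1 of the 3 tested, the globin gene *Hbb-bt*, was called higher (mean 12.2 ± 4.63 to 44.1 ± 10.9, adjusted p = 0.0235 from limma). Of 9 marginal zone B-cell markers 2 were called higher (*Cr2* and *Cd1d1*) and 1 lower (*Dtx1*, log2 fold change -1.94, adjusted p = 7.81e-04 from limma). In the same list, *S1pr3* (-0.43, adjusted p = 0.0198 from limma) and *Plxnd1* (-0.37, adjusted p = 0.0662) were lower by less than 1.5-fold. Of 6 follicular markers 1 was called higher and 1 lower, and of 6 tested plasmablast markers 1 lower.

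Since hnRNPL binds CA repeats, the reference transcript of each of the 10 genes was searched on the sense strand for unbroken runs of alternating C and A. The longest run had between 5 bases (*Btk*) and 9 bases (*Blk* and *Vav1*), with a median of 6.5, against 6 over 11532 tested protein-coding genes. None of the 10 had a run of 12 bases or more, against 5.73% of those genes. This cutoff is stricter than the motifs that the paper scored, such as ACACACA, which the longest runs of *Fyn* (8 bases), *Blk* and *Vav1* contain. Such shorter motifs were not counted here. The search covered mature transcripts only, without introns, and says nothing about binding.

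The genes whose profile over the 6 libraries was closest to that of *Blk*, which had the largest change of the 10, were *Maf1*, *Slc43a2* and *Kif3c*. Their root mean square differences from *Blk* in mean-centred log2 values were 0.0293, 0.0419 and 0.0452. Their WT means were 1068, 1311 and 291 normalized counts and their hnRNPL-deficient means 1473, 1719 and 411, and their adjusted p values from limma were 0.0771, 0.122 and 0.136, at changes under 1.5-fold.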

How the data were processed

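The authors trimmed reads with fastp 0.23.1, aligned them with STAR 2.7.9a to mm10, counted them per gene with featureCounts by strand on GENCODE annotation, and divided the counts by DESeq2 1.38.2 size factors, per the labels and the study's methods. The deposited values are these normalized counts, here treated as a signal and not as raw counts, for 6 libraries (3 WT, 3 hnRNPL-deficient). Division by the value of 1 read gave whole reads for 100% of values, within 0.001. The automatic test of this read 5 libraries, all but hnRNPL-deficient library 2, whose value of 1 read is close to 1. The authors' columns of mean count, log2 fold change, standard error, test statistic (a score), p-value, adjusted p-value and class were not used.

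The main test was limma 3.58.1 (R 4.3.3, eBayes with a mean-variance trend) on log2(normalized count + 1). It covered genes averaging 10 or more, with Benjamini-Hochberg adjustment over all 17640, at an adjusted p under 0.1 and 1.5-fold. The pseudocount of 1 understates changes of low genes. Count tests on recovered reads used edgeR 4.0.16 (quasi-likelihood test) and DESeq2 1.42.0. Tested on simulated data with a spread set alike for all genes and 50 genes changed at each of 4 fold sizes, limma made 4 calls among unchanged genes. Exon lengths and reference transcripts came from a GENCODE release (vM21) earlier than that of the authors.

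The 10 genes and all lists were chosen with earlier results of these data known. All 10 genes, *Hnrnpl*, called list genes and relatives whose shares are given are named, along with marker genes, although some genes are not reported here. The 3 genes closest to the member with the largest change were taken among genes averaging 50 or more. Alternatives were pseudocounts of 0.5 and 5, other filters, scalings and thresholds, no variance trend, a replicate block, each library left out, and count tests. Count tests on 6 libraries and an *Xist* covariate were added after the data were seen.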

Additional observations from a re-analysis of the deposited data

How the results depend on the processing

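None of the 10 genes was called in any of the 21 fits at the main thresholds. With an adjusted p under 0.1 and no fold minimum 1 was (*Blk*). For *Blk*, the adjusted p was 0.144 without a variance trend and 0.100 without a filter (limma), 0.178 by edgeR and 0.196 by DESeq2 on 5 libraries, and 0.0650 and 0.0345 by these on 6. Signs close to 0 turned for 4 genes. With equal totals, the log2 fold change was 0.018 for *Blnk*, 0.022 for *Plcg2* and 0.014 for *Pik3ap1*. With quantile normalization, which moved the median of the 10 to 0.10, it was 0.093 for *Blnk*, 0.11 for *Plcg2*, 0.020 for *Vav1* and 0.082 for *Pik3ap1*. By edgeR on 6 libraries it was 0.0019 for *Plcg2*. With each library left out in turn, it ranged from -0.075 to 0.018 for *Blnk*, from -0.12 to 0.055 for *Plcg2* and from -0.10 to 0.0040 for *Pik3ap1*. The difference in the share of *Fyn* was 0.027 percentage points without exon lengths, against -0.17, and from -0.59 to 0.23 with each library left out.

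In the 6 other lists, 7 genes were called higher and 6 lower. Higher calls were 4 by edgeR on 5 libraries and 3 to 5 with each library left out. With a 2-fold minimum and an adjusted p under 0.05 there were 1 higher and 3 lower calls, and with no fold minimum 12 and 12. The difference in the share of *Lyn* ranged from -0.42 to 3.34 percentage points with each library left out.

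Whether same-numbered libraries were paired cannot be settled by the correlations below, since deviations within a group are not independent of each other. Deviations from the group means of same-numbered libraries correlated at 0.562, 0.343 and 0.028 over 13882 genes. WT libraries 1 and 2 correlated best with the hnRNPL-deficient library of the same number, while WT library 3 correlated best with hnRNPL-deficient library 2 (0.474). With the replicate block, 1755 genes were called higher and 1018 lower, against 1284 and 719, with 0 of the 10 genes, and *Blk* had an adjusted p of 0.0281 from limma.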
